A study of Rattus norvegicus with 20 samples.

Results

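The genes described here are 9 markers of deep cortical layer neurons (Fezf2, Tle4, Bcl11b, Ntsr1, Foxp2, Tbr1, Crym, Etv1 and Sox5), followed in laser-captured neurons of rats after stroke. A probe was taken as a member if the array's gene name, a synonym of it or its accession was one of these genes. This gave 9 probes of 7 genes among the 41012 probes that were not controls (15351 named genes), with 2 probes each for Bcl11b and Sox5 and 1 each for the other 5 genes. No probe was matched to Foxp2 or Tbr1, which are not analysed here. All 9 member probes were among the 34225 probes tested.

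All animals were 2 years old and had a cortical stroke. The retrograde tracers CTb-Alexa 488 and CTb-Alexa 647, forms of cholera toxin B, were injected at the same place in peri-infarct cortex, the second after a survival period of 7 or 21 days in separate cohorts, and about 300 sprouting and about 300 non-sprouting neurons were captured from each animal 7 days after the second injection. The labels call the cohorts day 7 and day 21 (5 animals each), and do not state which tracer combination defined each cell type. RNA went through 2 rounds of T7 amplification, and each animal's pair of RNA pools was hybridised on 2 arrays, once forward (sprouting RNA in Cy5) and once with the dyes exchanged. The 2 arrays of an animal were counted as 1 replicate. Values are log2 ratios of sprouting over non-sprouting neurons, so that a negative ratio means less signal in sprouting neurons. In such pools, fewer neurons of a type and less RNA per neuron cannot be told apart.

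The deep layers of the cortex hold the neurons that send axons out of the cortex, layer 5 to the brainstem and spinal cord and layer 6 to the thalamus. Fezf2 is a zinc finger transcription factor that specifies subcerebral projection neurons, and Bcl11b (Ctip2) acts downstream of it in corticospinal axon growth. Sox5 and Tbr1 are transcription factors that set the order and fate of deep layer neurons, and Etv1 (Er81) is an ETS factor of layer 5. Tle4 is a Groucho-family co-repressor and Ntsr1 a neurotensin receptor, both used as markers of layer 6 corticothalamic neurons. Crym encodes mu-crystallin, a thyroid hormone binding protein of the cytosol that is enriched in corticospinal neurons.

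Of the member genes, 5 of 9 had an entry in the RefSeq promoter table (build GRCr8), and the 250 bases before the start are shown for 3 whose ratios are described at length below. Capitals mark a GC box (GGGCGG) in Fezf2 and, on the other strand and as a pair of overlapping copies, in Etv1. In Tle4 they mark a CCAAT box on the other strand. The Fezf2 stretch lies at chr15:15203943-15204192 (plus strand), that of Etv1 at chr6:61317179-61317428 (plus strand) and that of Tle4 at chr1:221222827-221223076 (minus strand, printed in the direction of the gene).
Fezf2: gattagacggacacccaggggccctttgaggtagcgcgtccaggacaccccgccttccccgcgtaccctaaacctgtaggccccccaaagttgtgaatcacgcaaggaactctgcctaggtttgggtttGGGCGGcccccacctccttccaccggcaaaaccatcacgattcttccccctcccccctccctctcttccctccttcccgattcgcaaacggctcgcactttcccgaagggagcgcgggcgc
Etv1: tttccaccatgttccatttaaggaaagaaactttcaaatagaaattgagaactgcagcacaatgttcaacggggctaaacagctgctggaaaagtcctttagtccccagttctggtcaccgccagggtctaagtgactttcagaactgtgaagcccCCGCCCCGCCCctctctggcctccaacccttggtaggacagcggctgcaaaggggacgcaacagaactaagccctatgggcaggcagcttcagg
Tle4: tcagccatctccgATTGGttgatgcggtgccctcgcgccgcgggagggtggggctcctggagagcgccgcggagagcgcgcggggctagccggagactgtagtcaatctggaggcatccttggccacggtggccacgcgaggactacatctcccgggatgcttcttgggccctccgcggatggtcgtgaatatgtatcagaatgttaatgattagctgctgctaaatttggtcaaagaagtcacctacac
On either strand, GGGCGG stood in 30.5% of the 33469 promoters of the table and in 2 of these 5 members, Fezf2 and Etv1. CCAAT stood in 34.0% and in Tle4 alone among the 5. The letters AACAAT, a core bound by SOX factors, stood in 10.3% of promoters and in Tbr1 alone, and the T-box letters GGTGTGA in 3.22% and in Ntsr1 alone. None of the 5 held TATAAA (12.9% of promoters), the ETS core CCGGAA (12.6%) or the forkhead letters GTAAACA (3.21%). A match describes the letters and is not evidence of binding.

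No member passed the test of sprouting against non-sprouting neurons on either day after adjustment over all tested probes. This was so of the whole array, where 0% of 34225 probes passed an adjusted p of 0.05 at day 7 and 0% at day 21 (limma with Benjamini-Hochberg adjustment). By unadjusted p under 0.05, 2 of 9 member probes were lower in sprouting neurons at day 7 (Fezf2 and Tle4), against 2070 probes or 6.05% of all tested (2.71% lower). At day 21 it was 1 of 9 (one Bcl11b probe, lower), against 1627 probes or 4.75% (2.94% lower). With 1 probe per gene (that of highest mean intensity), 6 of 7 genes had a mean ratio below 0 at day 7, where 51.2% of all tested probes were below 0. Leaving out 1 animal, the count was 4 without replicate 3, 5 without replicate 1, 7 without replicate 2 and 6 otherwise. The median of the genes was -0.13 (-0.15 to -0.07 leaving out 1 animal, the latter without replicate 1), and that of all tested probes was -0.0019. At day 21, 5 of 7 were below 0 with a median of -0.08, where 50.9% of all probes were below 0 and their median was -0.0015. The day 21 median was 0.02 without replicate 5, -0.02 without replicate 1 and -0.05 without replicate 4. The count below 0 was then 3, 4 and 5 of 7. The Bcl11b and Sox5 probes not taken had means of 0.01 and 0.0030 at day 7, and of 0.03 and 0.01 at day 21. Without Ntsr1, which few day 21 arrays measured, 4 of 6 genes were below 0 at day 21 with a median of -0.06.

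**Figure D1:**
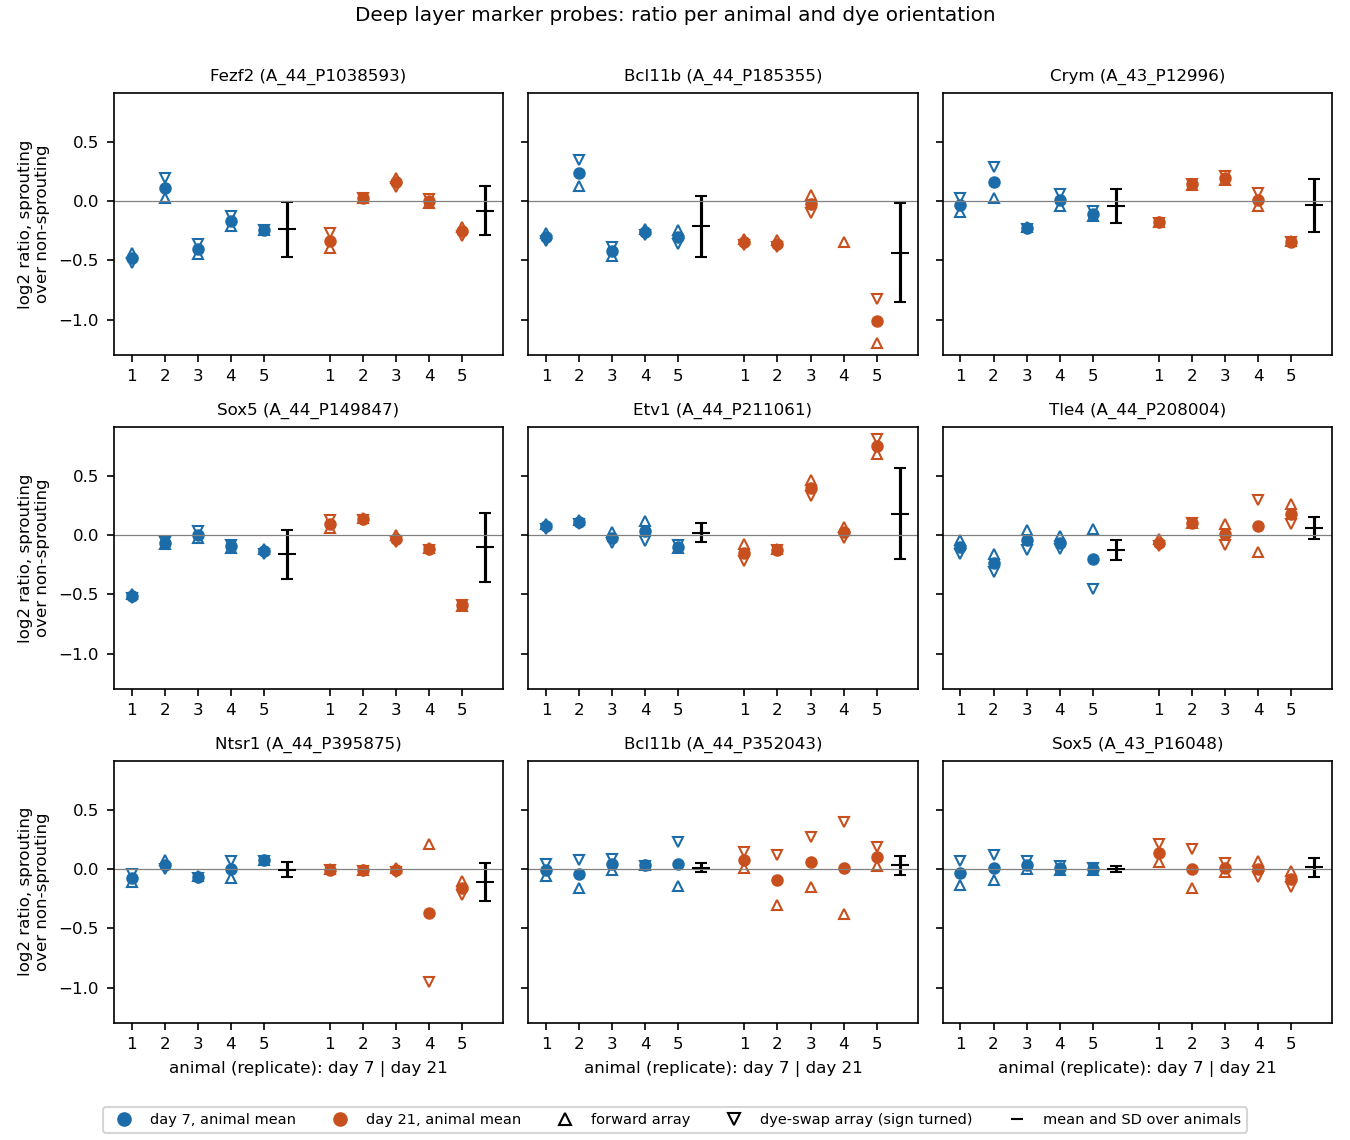
Log2 ratio of sprouting over non-sprouting neurons for each member probe (panels), with animals on the x axis, filled circles for the mean of an animal's 2 arrays, triangles for the single arrays, and bars for mean and SD over animals. In Fezf2, the Bcl11b probe A_44_P185355, Crym, Etv1 and the Sox5 probe A_44_P149847 the triangles of an animal lie close together while animals differ, and in the other 4 probes the triangles are often as far apart as the animals.

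Among the specification factors, Fezf2 gave a ratio below 0 in 4 of 5 animals at day 7, and 23% of tested probes did so in at least 4. Its ratios were -0.48, 0.11, -0.41, -0.17 and -0.24 in replicates 1 to 5. Only replicate 2 was above 0, and both of its arrays were (0.03 and 0.20). The mean was -0.24 ± 0.23 (SD, n = 5), a fold of 0.848, with a 95% interval of -0.44 to -0.04 (limma unadjusted p = 0.0244, adjusted p = 0.811). Leaving out replicate 1 gave -0.18, and leaving out replicate 2 gave -0.32. At day 21 the ratios were -0.33, 0.03, 0.16, 0.00 and -0.25, which lie on both sides of 0. Their mean was -0.08 ± 0.21 (SD, n = 5; limma adjusted p = 0.939), and the difference between days was 0.16 (SE 0.13; exact permutation p = 0.302, two-sided).

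Bcl11b was measured by 2 probes that gave different values. The brighter one, A_44_P185355, had ratios of -0.31, 0.24, -0.42, -0.26 and -0.30 at day 7, and as for Fezf2 only replicate 2 was above 0. Its day 7 mean was -0.21 ± 0.26 (SD, n = 5; limma adjusted p = 0.841), and -0.32 without replicate 2. At day 21 it was -0.34, -0.36, -0.02 and -1.01 in replicates 1, 2, 3 and 5. Replicate 4 had no value in the fit, since its dye-swap spot was marked as an outlier, and its forward array alone read -0.35. All 4 animals were below 0, and the mean of -0.44 ± 0.42 (SD, n = 4) is a fold of 0.740, with a 95% interval of -0.77 to -0.10 (limma unadjusted p = 0.0162, adjusted p = 0.923). Replicate 5 decides the size: without it the mean was -0.24 (limma unadjusted p = 0.0754).

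Over both days together the brighter Bcl11b probe averaged -0.32 (SE 0.10), the lowest value among the member probes, with a limma unadjusted p of 0.00969 and an adjusted p of 0.716. In that average 6.42% of all tested probes had an unadjusted p under 0.05 (3.2% lower) and 0% an adjusted one, and the members that did were this probe and Fezf2 (-0.16, SE 0.06, limma adjusted p = 0.767). The dimmer Bcl11b probe, A_44_P352043, showed no such shift. Its animals ran from -0.04 to 0.04 at day 7 and from -0.09 to 0.10 at day 21, with 95% intervals of the mean of -0.07 to 0.09 and -0.05 to 0.11. The correlation of the 2 probes over 9 animals was -0.48, and 0.32 without the 2 animals of most extreme ratio in the brighter probe. The dimmer probe's own forward and dye-swap ratios correlated at -0.60.

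Sox5 likewise had 2 probes. The brighter one, A_44_P149847, read -0.52, -0.07, 0.00, -0.10 and -0.14 at day 7, with replicate 1 apart from the rest. At day 21 it read 0.09, 0.13, -0.03, -0.12 and -0.59, with replicate 5 apart. The means were -0.16 ± 0.20 and -0.10 ± 0.29 (SD, n = 5 each; limma adjusted p = 0.841 and 0.931). Without replicate 1 the day 7 mean was -0.07, and at day 21 it was 0.02 without replicate 5 and -0.16 without replicate 2. The dimmer probe, A_43_P16048, ran from -0.03 to 0.03 at day 7 and from -0.08 to 0.14 at day 21. It correlated with the brighter probe at 0.76 over the 10 animals, though on a range that was smaller by far. The dimmer probe's own forward and dye-swap ratios correlated at -0.31 and had the same sign in 3 of 10 animals.

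Etv1, the ETS factor of layer 5, varied between animals at day 21. At day 7 its ratios were 0.07, 0.11, -0.02, 0.04 and -0.10, and their mean was 0.02 ± 0.08 (SD, n = 5). At day 21 they were -0.15, -0.12, 0.40, 0.02 and 0.75, so replicates 3 and 5 were high and replicates 1 and 2 low. The day 21 mean was 0.18 ± 0.39 (SD, n = 5; limma adjusted p = 0.923), and it was 0.04 without replicate 5. In that animal Etv1 was higher in sprouting neurons on both arrays (0.68 and 0.81), while the brighter Bcl11b probe was lower on both (-1.20 and -0.83), as was the brighter Sox5 probe (-0.60 and -0.59). The Etv1 signal of that animal was the lowest of all animals in both cell types. Its log2 intensity was 7.10 in sprouting and 6.36 in non-sprouting neurons.

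Of the layer 6 markers, Tle4 was below 0 in all 5 animals at day 7, as were 5.46% of tested probes. Its ratios were -0.10, -0.24, -0.04, -0.06 and -0.20, and the mean was -0.13 ± 0.09 (SD, n = 5; limma unadjusted p = 0.0139, adjusted p = 0.788). The 2 dye orientations did not give the same size: the forward arrays averaged -0.02 and the dye-swap arrays -0.24. At day 21 the ratios were -0.07, 0.10, 0.01, 0.08 and 0.18, with a mean of 0.06 ± 0.09 (SD, n = 5; limma adjusted p = 0.923). The difference between days, 0.19 with a 95% interval of 0.05 to 0.32, had an exact permutation p of 0.0238 (two-sided; the smallest possible was 0.00794) and a limma adjusted p of 0.925. By unadjusted p under 0.05 this was 1 of 9 member probes, against 4.12% of all tested, and by adjusted p 0% of all passed. The difference was 0.08 on the forward arrays and 0.30 on the dye-swap arrays, and 0.32 with a background offset of 10 in place of 50 (the day 7 mean was then -0.22).

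Ntsr1 lay near 0 at day 7, with ratios of -0.08, 0.04, -0.07, 0.00 and 0.07. The probe was well above background on 10 of 10 sprouting and 9 of 10 non-sprouting channels at day 7, but on 4 and 6 at day 21, where replicate 1 alone was so on both arrays in either cell type. That animal's ratio was -0.01. The other day 21 ratios, -0.01, -0.01, -0.37 and -0.16 in replicates 2 to 5, each include an array on which neither cell type was well above background, and no test is given for that day. In replicate 4 the value comes from such an array (-0.95, dye swap), while the forward array read 0.21.

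Crym, the thyroid hormone binding protein, gave ratios of -0.03, 0.16, -0.23, 0.01 and -0.11 at day 7 and -0.18, 0.14, 0.19, 0.01 and -0.34 at day 21. Both days lay on both sides of 0, with means of -0.04 ± 0.14 and -0.03 ± 0.22 (SD, n = 5 each; limma adjusted p = 0.955 and 0.977). The probe was saturated in the non-sprouting channel of 1 array, the dye swap of day 7 replicate 1, so that array gives a bound.

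**Figure D2:**
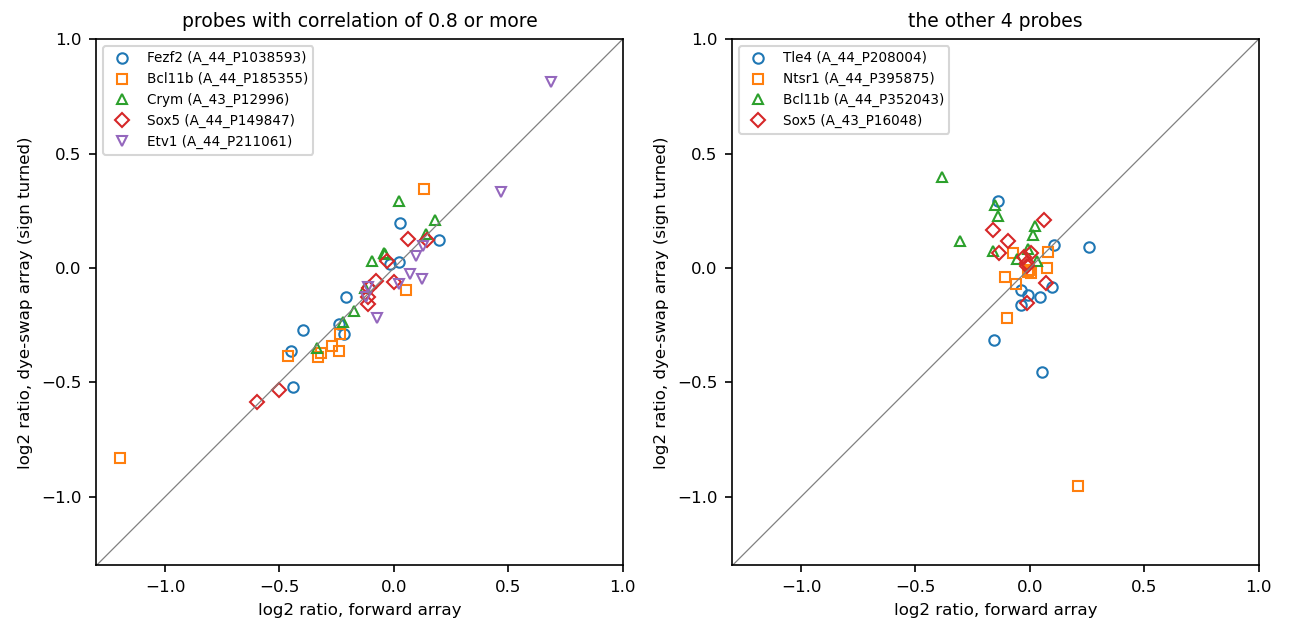
Ratio on the forward array (x axis, log2) against the sign-turned ratio on the dye-swap array (y axis, log2), 1 point per animal, with the line of equality; the 5 probes on the left have correlations of 0.89 to 0.99 and the 4 on the right of -0.62 to 0.13.

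The member probes fell into 2 kinds by how well an animal's arrays repeated each other. In Fezf2, the brighter Bcl11b and Sox5 probes, Crym and Etv1 the forward and dye-swap ratios correlated at 0.89 to 0.99 over the animals, where the median over all tested probes was 0.53. The SD between animals in these 5 probes was 3.53 to 12.8 times the root mean square half-difference between the arrays of an animal. Most of their spread was therefore between the pools of different animals and not between arrays. An animal's arrays carry the same 2 amplified pools, so this spread includes that of capture and amplification. In Tle4, Ntsr1 and the dimmer Bcl11b and Sox5 probes the correlation was -0.62 to 0.13, and the SD between animals was 0.352 to 0.733 times that half-difference. The mean levels of these 4 were 6.48 to 6.99 on the log2 intensity scale, near the value that the added offset of 50 gives by itself (5.64). Etv1 was as low in the non-sprouting neurons of day 21 replicate 5 (6.36). Tle4 was well above background on 10 and 9 of 10 sprouting and non-sprouting channels at day 21, the dimmer Bcl11b probe on 7 and 8, the dimmer Sox5 probe on 7 and 9, and Ntsr1 on 4 and 6.

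Across animals some of the well-repeated probes moved together. This is a description, since the probes of an animal share its amplification and arrays. Crym correlated with Fezf2 at 0.77 (n = 10, and 0.59 without the 2 animals of most extreme Fezf2 ratio). With the brighter Bcl11b probe it correlated at 0.81 (n = 9, and 0.70 without 2). Fezf2 and that Bcl11b probe correlated at 0.54, which became -0.0034 without 2 animals. Etv1 ran against the brighter Sox5 probe, at -0.66 (n = 10; -0.61 without 2).

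**Figure D3:**
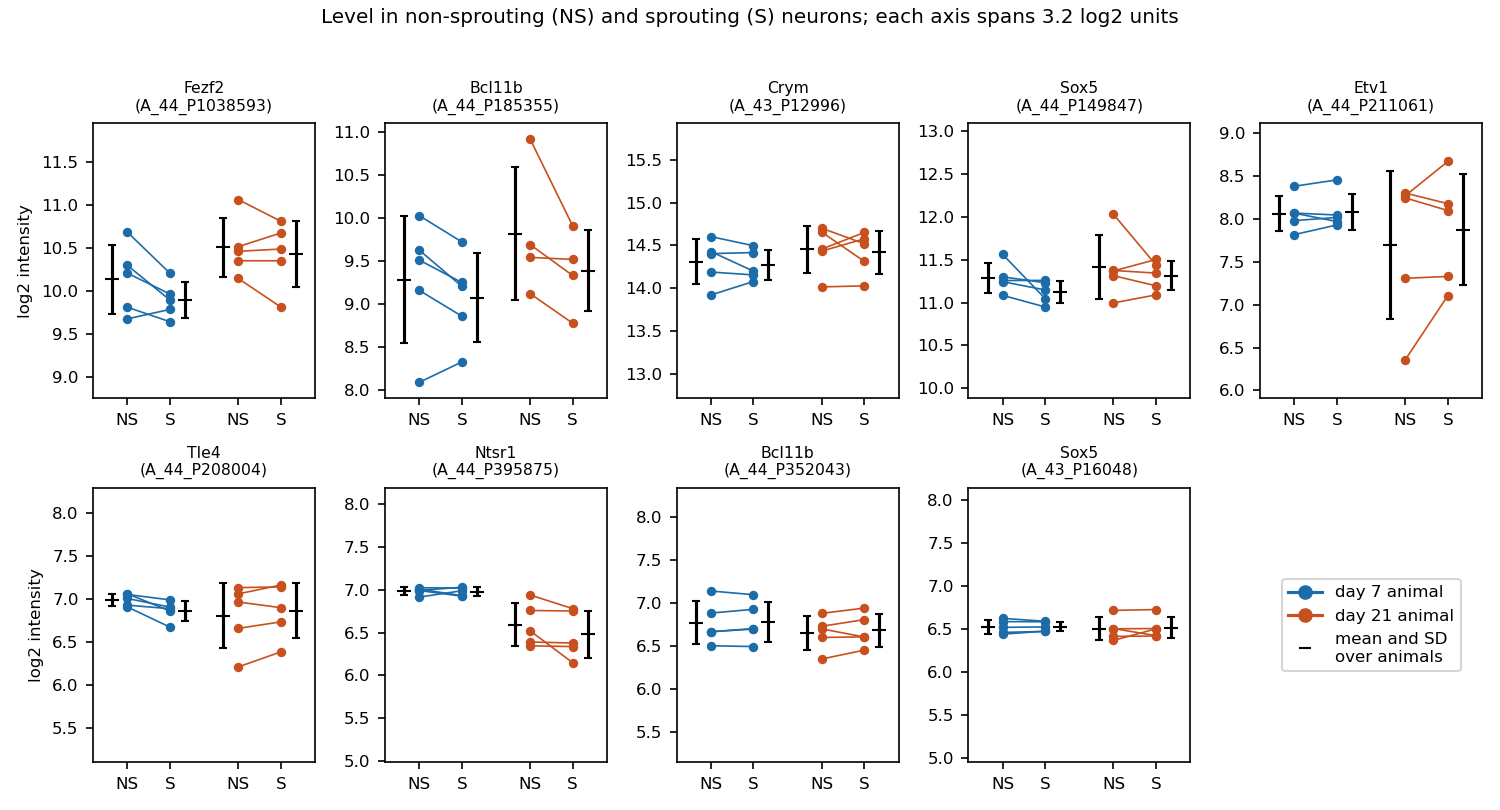
Log2 intensity of each member probe in non-sprouting (NS) and sprouting (S) neurons, day 7 in blue and day 21 in orange, lines joining the 2 pools of an animal and bars for mean and SD; each axis spans the same number of log2 units. For Fezf2 the mean in sprouting neurons was 9.89 at day 7 and 10.42 at day 21. For Ntsr1 it was 6.98 and 6.48, with 4 of 10 day 21 sprouting channels well above background.

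Levels in each cell type were also compared between days, which rests on single channels of separate animals. Fezf2 in sprouting neurons was 10.20, 9.78, 9.89, 9.64 and 9.96 at day 7 and 9.81, 10.48, 10.67, 10.35 and 10.81 at day 21. The value of day 21 replicate 4 did not repeat between its arrays (9.85 forward and 10.84 dye swap). The difference between days was 0.53 (SE 0.19, exact permutation p = 0.0397, limma adjusted p = 0.246), or 0.32 with arrays scaled to their 75th percentile. In non-sprouting neurons Fezf2 differed by 0.37 (SE 0.22; limma adjusted p = 0.406), with a mean of 10.13 at day 7 and 10.50 at day 21. Ntsr1 in sprouting neurons was 6.93, 7.03, 6.92, 7.02 and 6.99 at day 7 and 6.75, 6.38, 6.34, 6.15 and 6.78 at day 21. The day 21 values lie lower, but the probe entered the tests through day 7 alone, and in day 21 replicates 2 and 3 no sprouting channel was well above background, so its levels are given without a test.

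In sprouting neurons 6 member probes were well above background on both arrays in at least 3 animals of each day, and Fezf2 was the 1 of these with an unadjusted p under 0.05, against 15.3% of all tested probes. In non-sprouting neurons it was 0 of 8 such probes, against 15.6%. No probe of the array passed an adjusted p of 0.05 in either (0%). The shares of all tested probes are over an unlike set. Those probes needed to be measured in 1 day and 1 cell type only, and the members counted here on both days. The scan times put the arrays in 5 batches, of which 1 held both days (replicates 4 and 5 of day 7 and replicate 1 of day 21). With the batch as a fixed block, so that only this batch informs the difference, Fezf2 differed by 0.0088 in sprouting neurons (limma unadjusted p = 0.972). Ntsr1, well above background on all arrays of that batch, differed by -0.25 there. The Tle4 difference between days was then 0.07. The levels of the other 5 of these probes differed between days by -0.21 (Etv1) to 0.31 (the brighter Bcl11b probe) in sprouting neurons, with limma adjusted p of 0.423 to 0.997.

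**Figure D4:**
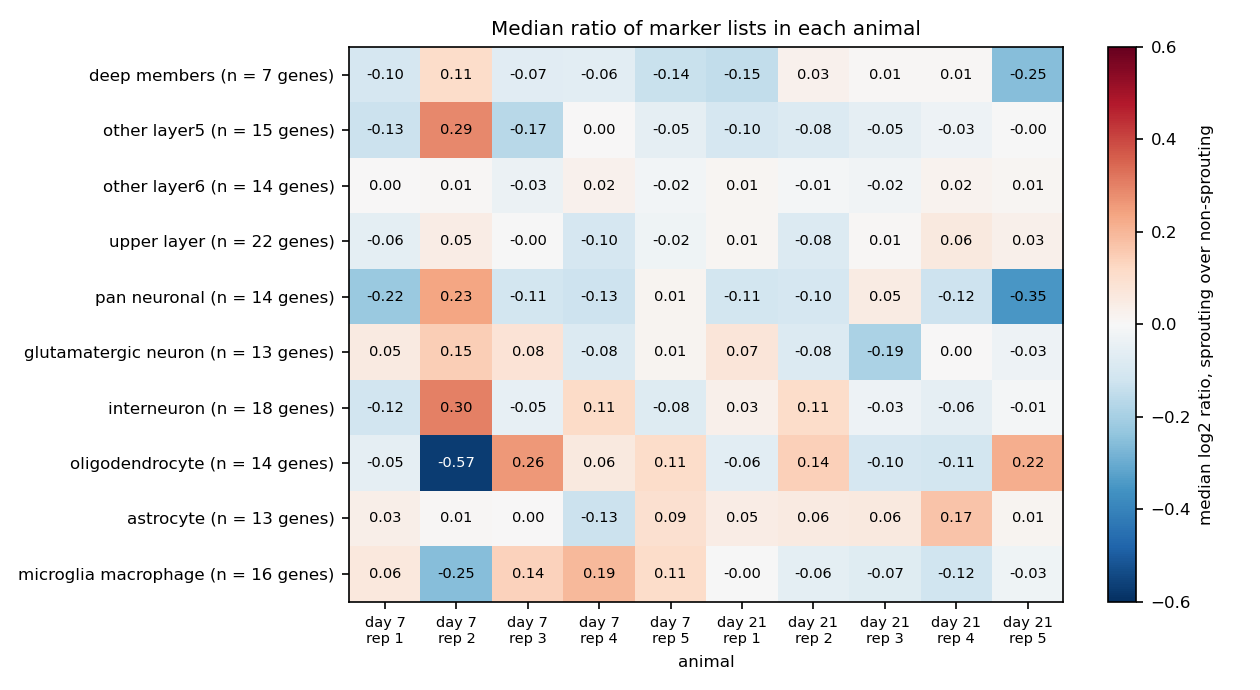
Median log2 ratio of each marker list (rows, with the number of tested genes) in each of the 10 animals (columns); red is higher and blue lower in sprouting neurons. The members are lowest in day 21 replicate 5 (-0.25) and highest in day 7 replicate 2 (0.11), where the pan neuronal list is also lowest (-0.35) and highest (0.23). In day 7 replicate 2 the oligodendrocyte list is lowest (-0.57), the interneuron list highest (0.30) and the astrocyte list near 0 (0.01).

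Other deep layer genes were looked at through fixed lists, with 0 genes past an adjusted p of 0.05 on either day. Of 15 other layer 5 genes tested, 11 had a mean ratio below 0 at day 7 (median -0.03) and 10 at day 21 (median -0.05). The lowest at day 7 were Rbp4 (-0.35, SE 0.23), Pcp4 (-0.26, SE 0.16), a calmodulin-binding peptide, and the contactin Cntn6 (-0.26, SE 0.14), and the highest S100a10 (0.21, SE 0.24), Tcerg1l (0.19, SE 0.10) and Crim1 (0.14, SE 0.16). At day 21 the lowest were Igfbp4 (-0.25, SE 0.17), Pcp4 (-0.18, SE 0.16) and S100a10 (-0.14, SE 0.24), and the highest Tcerg1l (0.10, SE 0.10), Npr3 (0.05, SE 0.05) and Kcnn2 (0.03, SE 0.16). Of 14 other layer 6 genes, 6 were below 0 at day 7 (median 0.0087) and 7 at day 21 (median 0.0021). Of these 14, 4 were well above background in all arrays in the non-sprouting channel and 2 in the sprouting channel. For other layer 5 genes it was 12 and 7 of 15, and for upper layer genes 14 and 5 of 22. Many layer 6 genes were thus dim, and their medians near 0 do not show that they were alike in both cell types. The layer 6 extremes at day 7 were Ccn2 (-0.45, SE 0.26), Drd1 (-0.12, SE 0.06; well above background on 4 of 20 sprouting channels) and Nr4a2 (-0.09, SE 0.11) below and Oprk1 (0.13, SE 0.07), Lxn (0.11, SE 0.17) and Synpr (0.08, SE 0.46) above. At day 21 they were Ccn2 (-0.10, SE 0.29), Moxd1 (-0.04, SE 0.05) and Syt6 (-0.03, SE 0.04) below and Synpr (0.28, SE 0.46), Oprk1 (0.06, SE 0.08) and Grik3 (0.03, SE 0.03) above. Of 22 upper layer genes, 12 were below 0 at day 7 (median -0.01) and 11 at day 21 (median -0.0096). They ran from Kitlg (-0.33, SE 0.25) and Lamp5 (-0.32, SE 0.16) to Inhba (0.26, SE 0.17) and Plxnd1 (0.30, SE 0.18) at day 7, and from Cartpt (-0.75, SE 0.32) and Lamp5 (-0.19, SE 0.16) to Lmo4 (0.14, SE 0.13) and Pou3f3 (0.30, SE 0.15) at day 21.

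Pan neuronal genes were well above background in all arrays for 14 of 14 genes in the non-sprouting channel and 9 of 14 in the sprouting channel, and glutamatergic genes for 10 and 8 of 13. The other pan neuronal genes (Map2, Nefl, Nefh, Thy1 and Tubb3) were so on 19 of 20 sprouting channels each. A single poor array can lower such counts: on the dye swap of day 21 replicate 4, 20.6% of all probes were well above background in the sprouting channel. Genes of other cell types were also well above background in all arrays: 13 and 7 of 16 microglia and macrophage genes, 10 and 5 of 13 astrocyte genes, 10 and 6 of 14 oligodendrocyte genes and 13 and 10 of 18 interneuron genes. Their correlations with the members over animals ranged widely. The members' median per animal was -0.10, 0.11, -0.07, -0.06 and -0.14 at day 7 and -0.15, 0.03, 0.0079, 0.0057 and -0.25 at day 21. Over the 10 animals it correlated at 0.75 with the median of 14 pan neuronal genes, and at 0.15 without the 2 most extreme animals. It correlated at -0.65 with the median of 14 oligodendrocyte genes (-0.48 without 2) and at -0.54 with that of 16 microglia and macrophage genes (-0.38 without 2). It correlated at 0.56 with interneuron genes (0.20 without 2), 0.47 with other layer 5 genes (-0.13 without 2), -0.33 with endothelial genes, -0.14 with blood genes, -0.13 with other layer 6 genes, 0.09 with astrocyte genes, 0.05 with upper layer genes and 0.02 with glutamatergic genes (-0.24 without 2). With Ntsr1 left out of the members' median it correlated at 0.74 with pan neuronal, -0.59 with oligodendrocyte, -0.59 with microglia and macrophage, -0.55 with endothelial, -0.34 with blood and -0.21 with glutamatergic genes. The brighter Bcl11b probe followed the pan neuronal median most closely, at 0.90 over 9 animals. Day 7 replicate 2 was highest in both (0.24 and 0.23) and day 21 replicate 5 lowest in both (-1.01 and -0.35). A value without these animals was not computed. Day 7 replicate 2, the animal in which Fezf2, this Bcl11b probe and Crym were above 0, had a pan neuronal median of 0.23, 13 of 14 oligodendrocyte genes below 0 (median -0.57) and 13 of 16 microglia and macrophage genes below 0. In the same animal 17 of 18 interneuron genes were above 0 (median 0.30), and so were 8 of 13 astrocyte genes (median 0.0077). Day 7 replicate 1, lowest of its day in Fezf2 and the brighter Sox5 probe, had 8 of 9 blood genes above 0 (median 0.66). The part of these markers in the members' ratios was not tested. Taken over each gene's mean ratio, the list medians were -0.03 at day 7 and -0.13 at day 21 for pan neuronal genes, 0.0041 and -0.05 for 13 glutamatergic genes, 0.02 and 0.06 for 18 interneuron genes, -0.06 and 0.03 for oligodendrocyte genes, -0.02 and 0.05 for 13 astrocyte genes, 0.03 and -0.04 for microglia and macrophage genes, 0.0091 and -0.02 for 10 endothelial genes and 0.29 and -0.02 for blood genes. The pan neuronal extremes were the neurofilament genes Nefm (-0.37, SE 0.22) and Nefh (-0.28, SE 0.13) below and Gap43 (0.15, SE 0.07) and Syt1 (0.16, SE 0.27) above at day 7, and Syt1 (-0.45, SE 0.27) and Nefm (-0.42, SE 0.22) below and Snap25 (0.12, SE 0.29) and Gap43 (0.18, SE 0.07), a growth cone protein, above at day 21.

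Among 11374 named genes, those whose ratios over the 10 animals were most like the members' median were Mrpl53 (correlation 0.93), Ndufs7 (0.92), Idh3g (0.92), Magmas-ps1 (0.92) and Nicol1 (0.91). Among the most opposed were Plekhf2 (-0.95), Jade1 (-0.93), Sumf1 (-0.92) and Dlgap1 (-0.91). Large correlations were common, with a 5th percentile of -0.71, a median of -0.05 and a 95th percentile of 0.66 over those genes. A non-member probe described as similar to Tbr1, an expressed sequence tag, ran from -0.06 to 0.13 at day 7 and from -0.09 to 0.05 at day 21. It was well above background on 2 of 10 sprouting channels at day 21.

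**Figure D5:**
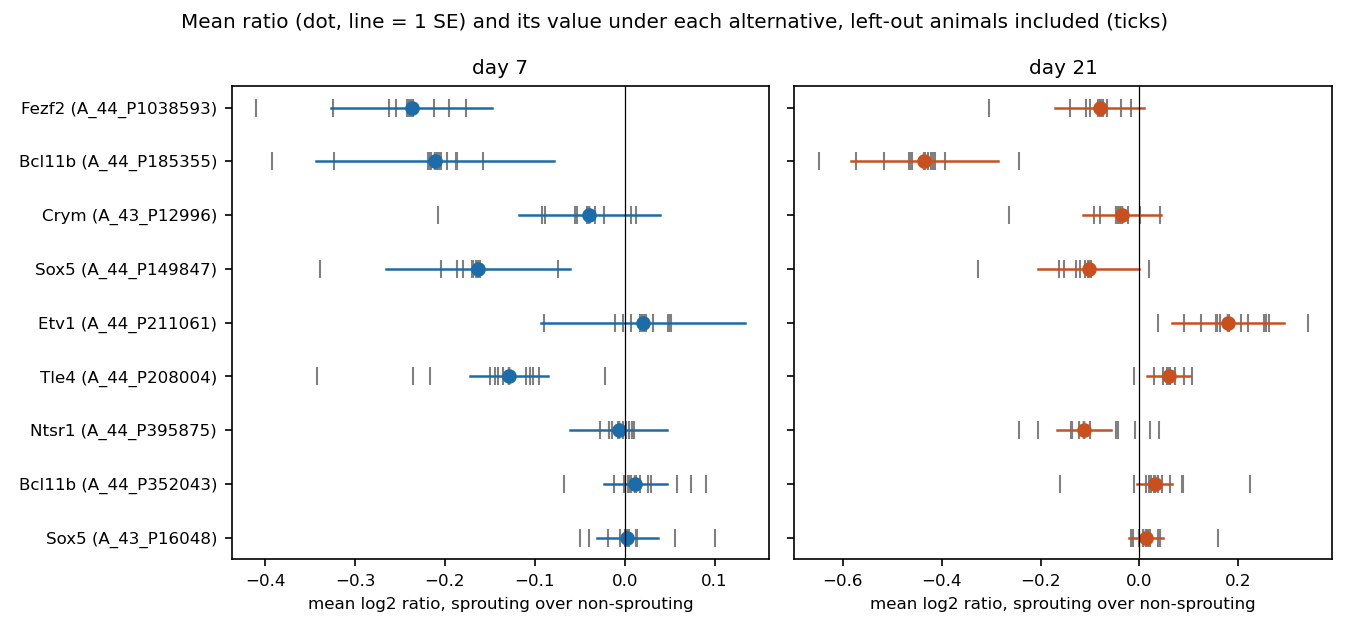
Mean log2 ratio of each member probe at day 7 and day 21 (dots, line of 1 SE) with its value under 20 alternatives each, left-out animals included (ticks). Some alternatives, such as a changed filter, cannot move the mean. Fezf2 and the brighter Bcl11b probe stay below 0 on both days, from -0.41 to -0.18 and from -0.39 to -0.16 at day 7, while Ntsr1, Crym and the dimmer probes lie on both sides of 0.

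The mean ratios of Fezf2 and of the brighter Bcl11b probe were below 0 at both days under each of 20 alternatives per day. Some of the 20 could not move a mean ratio, namely a changed filter, Aquantile normalization and the days fitted apart. For Fezf2, which had no outlier spot, keeping outlier spots or animals with 1 usable array could not either. Their adjusted p stayed above the threshold in each of these. For Fezf2 they ranged from -0.41 to -0.18 (day 7) and from -0.31 to -0.02 (day 21), and for Bcl11b from -0.39 to -0.16 and from -0.65 to -0.24. Etv1 at day 21 ran from 0.04 to 0.34. In the authors' deposited table the means of the brighter Bcl11b probe were -0.21 at day 7 and -0.41 at day 21, and those of Fezf2 were -0.24 and -0.07. That day 21 Bcl11b mean includes replicate 4 (-0.38), which had no value in the fit here. Arrays differed in quality: 20.6% to 95.4% of probes were well above background, and an animal's 2 arrays correlated across probes at 0.05 (day 21 replicate 4) to 0.89 (day 7 replicate 1).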

How the data were processed

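Spot intensity (mean signal and local background, linear) was used as deposited from Agilent Feature Extraction 9.1.3.1, per the file headers. The log10 ratio of the processed signals, corrected by Feature Extraction per the file headers, was 1 alternative, and the authors' deposited table of log2 ratios another, of which normalization and centring are unstated. Against the ratios computed here its columns correlated at 0.892 to 1.00, with slopes of 0.863 to 1.68 and medians of -0.012 to 0.012, and 20 of 20 matched their own array best. A further 20 columns were not used. Genome build: not given in the sources used here.

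Each of the 20 arrays had 43628 spots, 2256 of them controls. Background was corrected with normexp (offset 50) and arrays were normalized by loess with controls at weight 0 (limma 3.58.1, R 4.3.3, and the data.table package, version 1.17.8). Outlier spots (11 to 4088 per array) were set to missing, and spots of a probe and the 2 arrays of an animal were averaged. Testing required a probe to exceed background clearly on both arrays in 3 or more animals of a day, in 1 cell type. Both days were fitted together with lmFit and eBayes, adjusted by Benjamini-Hochberg at 0.05. Levels used Aquantile single channels. The script was tested on simulated data. Precision is limited by 5 animals per day; the labels give separate animals.

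The members and lists were chosen with earlier results of these data known. All member probes are named; of the other layer 5 and layer 6 lists, the 3 highest and 3 lowest of each day; of the upper layer and pan neuronal lists, the 2 highest and 2 lowest; the rule allowed as many for the remaining lists, which are given by their medians; likeness names 5 genes at each end, 1 of which is not reported here. Alternatives chosen after seeing the data were that an animal with 1 usable array takes that array, and Ntsr1 left out of counts and medians over members.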

Additional observations from a re-analysis of the deposited data

Results flagged for a closer look

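In 4 of 51 groups of 5 animals 1 animal stood apart from the other 4 by Dixon's test, and in 0 of 3 groups of 4 animals; chance alone gives about 1 in 20. The ratio of the brighter Bcl11b probe in day 7 replicate 2 was 0.24, where the nearest other animal was at -0.26. The ratio of the brighter Sox5 probe in day 7 replicate 1 was -0.52, where the nearest was at -0.14. The level of Etv1 in sprouting neurons of day 7 replicate 1 was 8.45, where the nearest was at 8.04. The level of the dimmer Sox5 probe in sprouting neurons of day 21 replicate 3 was 6.73, where the nearest was at 6.51.

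The Tle4 ratio differed between days by 0.19 (exact permutation p = 0.0238, limma adjusted p = 0.925), and by 0.08 on the forward arrays alone.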

How the results depend on the processing

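No member probe passed an adjusted p of 0.05 under any alternative. Of 1143 values of member probes under alternatives, 84 had the other sign, 68 of them where the main estimate was under 1 SE and 16 where it was 1 SE or more. The 1143 include alternatives that cannot change an estimate, such as a changed filter. The cause was not tested in any of these.

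Counts over all probes, 0 in every comparison, changed as follows. Without background correction 1 probe was called at day 7 and 1 in the mean over days; the authors' deposited table gave 1 in that mean, and median centring 1 at day 21. Dye-swap arrays alone gave 134 in the mean over days. The 20 arrays entered singly gave 13 at day 7, 2 at day 21, 1 in the difference and 8 in the mean. For levels between days, leaving out 1 animal gave 0 to 267 in sprouting and 0 to 513 in non-sprouting neurons, both highest without day 21 replicate 1. With a replicate block 0 probes were called in the difference, the mean and both levels, where 1236, 1608, 4672 and 4749 had an unadjusted p under 0.05, and no call changed. The labels give same-numbered animals of the 2 days as separate animals, so the numbers do not pair them. Their deviations from the mean ratio of their day correlated across probes at -0.20 to 0.04, which by itself cannot settle pairing.

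Values with the other sign follow. The dimmer Bcl11b and Sox5 probes are A_44_P352043 and A_43_P16048, and a difference is day 21 minus day 7. Without background correction the dimmer Bcl11b probe was -0.00037 at day 7, -0.010 at day 21, -0.0097 in the difference and -0.0052 in the mean, Tle4 -0.010 at day 21 and -0.060 in the sprouting level, and Crym -0.015 in the difference. Feature Extraction's ratio gave -0.040 for the dimmer Sox5 probe at day 7 and -0.0048 for the Crym difference. The authors' deposited table gave -0.012 for the dimmer Bcl11b probe and 0.0017 for Ntsr1 at day 7, -0.018, -0.0015 and -0.0098 for the dimmer Sox5 probe at day 7, day 21 and in the mean, and -0.0078 for the Crym difference. Median centring gave 0.0085, 0.039, 0.030 and 0.024 for Ntsr1 at day 7, day 21, in the difference and the mean, -0.090 and -0.00037 for Etv1 at day 7 and in the mean, and -0.057 for the Crym difference. Forward arrays alone gave -0.067, -0.16, -0.094 and -0.11 for the dimmer Bcl11b probe at day 7, day 21, in the difference and the mean, -0.050, -0.014 and -0.032 for the dimmer Sox5 probe at day 7, day 21 and in the mean, 0.021, 0.039 and 0.0017 for Ntsr1 at day 21, in the difference and the mean, and 0.018 for Tle4 in the mean. Dye-swap arrays alone gave 0.0044, 0.012 and -0.011 for Ntsr1, Crym and Etv1 at day 7, and -0.035 and -0.014 for the difference of Crym and of the dimmer Sox5 probe.

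Scan batch as a fixed block gave differences of -0.13 for Fezf2, -0.13 for Crym and -0.12 for Etv1, sprouting levels of -0.026 for Tle4, -0.28 for the brighter Bcl11b probe and 0.10 for Etv1, and non-sprouting levels of -0.21 for that Bcl11b probe, 0.22 for Etv1 and -0.17 for the brighter Sox5 probe. For sprouting levels, quantile normalization gave -0.0085 for Tle4, and scaling to the 75th percentile gave -0.018 for Tle4, -0.046 for Crym, 0.44 and -0.044 for the dimmer and brighter Sox5 probes and, in non-sprouting neurons, -0.031 for the latter. The Cy5 channel alone gave -0.061 for Tle4 and 0.022 for the dimmer Sox5 probe in sprouting neurons, and the Cy3 channel alone 0.050 for the dimmer Bcl11b probe in sprouting and -0.0029 for Crym in non-sprouting neurons.

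Leaving out 1 animal at a time, values ran as follows. Crym ran from -0.089 to 0.0075 at day 7, -0.092 to 0.042 at day 21, -0.052 to 0.082 in the difference and -0.066 to 0.0012 in the mean. The dimmer Sox5 probe ran from -0.0048 to 0.012, -0.016 to 0.038, -0.019 to 0.035 and -0.0067 to 0.021 in the same order, -0.067 to 0.010 in the sprouting level and -0.079 to 0.0086 in the non-sprouting level. The brighter Sox5 probe ran from -0.16 to 0.020 at day 21, -0.028 to 0.18 in the difference and -0.026 to 0.23 in the non-sprouting level. Ntsr1 ran from -0.027 to 0.010 and Etv1 from -0.0024 to 0.050 at day 7, and the sprouting level of Tle4 from -0.073 to 0.12.

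In the 4 dim probes the level is near the added offset, which compresses ratios toward 0, so a small ratio there does not show that the gene was alike in both cell types. With an offset of 10 in place of 50, Tle4 was -0.22 and not -0.13 at day 7 and 0.32 and not 0.19 in the difference, and Ntsr1 at day 21 was -0.21 and not -0.11. Median centring gave -0.41 for Fezf2, -0.39 for the brighter Bcl11b probe and -0.34 for the brighter Sox5 probe at day 7, and -0.33 for the last at day 21. Feature Extraction's ratio gave -0.34 for Tle4 at day 7, 0.41 in its difference, and 0.34 for Etv1 at day 21.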
